A study of Homo sapiens with 24 samples.

Results

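The windows described here lie in the mRNAs of 2 cytoplasmic actins, ACTB and ACTG1, and of 5 tubulins, TUBA1A, TUBA1B, TUBA1C, TUBB and TUBB4B. They were taken from 6 lists of enriched windows as all windows that name 1 of these 7 genes, out of 9792 genes with a window in any list. The lists come from eCLIP in HEK293, an established human cell line derived from embryonic kidney. In eCLIP, RNA crosslinked to a protein is pulled down with it by an antibody (IP), and its reads in each stretch of a transcript are compared with an input library. SNRNP200, the helicase of the U5 snRNP that separates U4 from U6 RNA when the spliceosome is activated, was profiled in the cytoplasmic fraction with 500 µM arsenic and without treatment, and in whole cells with 500 µM arsenic and without treatment. CAPRIN and G3BP1, RNA-binding proteins known from stress granules, were each profiled without treatment. Each experiment has 2 IP and 2 input libraries by the labels, 24 in all, and all are of the same cell line. The G3BP1 list nevertheless joins a set of windows found in up to 2 replicates with a set found in up to 3, a replicate more than the labels hold, and 56 of the entries of the 7 genes come from the second set (32 with 3 replicates) and 11 from the first. The lists hold binding and not expression, so the cell type was not checked against markers, and the labels do not say whether replicates were separate cultures, so p-values measure only the spread between these libraries.

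Actins assemble into the filaments that carry cell shape, adhesion and contraction, and alpha and beta tubulins pair as the subunits of microtubules. Both protein families are abundant in dividing cells, and their mRNAs are heavily translated. ACTB mRNA is known to be localised through its 3′ UTR, and tubulin mRNAs are known to be degraded during translation when free tubulin accumulates, a feedback that reads the first amino acids of the nascent protein. The coding sequences of ACTB and ACTG1, of the 3 alpha tubulins and of the 2 beta tubulins are closely similar, so the gene to which a coding read was assigned is uncertain within each family.

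Annotated transcript starts of 6 of the 7 genes were found in RefSeq, ACTB being the gene without an entry, and 4 of the 6 genes had a start inside an enriched window. Their initial 30 transcribed bases are shown because SNRNP200 under arsenic, CAPRIN or G3BP1 had windows there, and the capitals mark the longest unbroken run of C and T. The positions are on GRCh38.p14, at chr17:81512770-81512799 on the minus strand for ACTG1, chr12:49131366-49131395 on the minus strand for TUBA1B, chr12:49265082-49265111 on the plus strand for TUBA1C and chr6:30720352-30720381 on the plus strand for TUBB.
ACTG1: ctcagtcgccgctgccagCTCTCgcactct
TUBA1B: agtgcgttacttacctcgaCTCTTagcttg
TUBA1C: actaCTTCTCCCCCggactccttggtagtc
TUBB: ctctcagaaCCTTCCTgccgtcgcgtttgc
This TUBA1C start holds a run of 10 bases, a length that 4.23% of 35116 annotated starts reach. The runs of 5 bases in ACTG1 and TUBA1B are matched or exceeded in 44.3% of starts, and the run of 7 bases in TUBB in 16.4%. The TUBA1C window with this start, chr12:49265081-49265130, held 43 IP and 13 input reads in the cytoplasm under arsenic (log2 enrichment 3.55 and 7.65 in the 2 replicates), and 22 IP and 6 input reads for CAPRIN (3.05 and 3.19). The TUBA1B window with this start, chr12:49131301-49131397, held 425 IP and 155 input reads in the cytoplasm under arsenic (2.93 and 3.54) and 153 and 17 for CAPRIN (3.74 and 4.64). The printed starts of ACTG1 (128 IP and 14 input reads) and TUBB (58 and 16) lay in CAPRIN windows and in no SNRNP200 window. Those of ACTG1 and TUBA1B lay in G3BP1 windows as well. Other annotated starts of TUBA1C (runs of 4 and 8 bases) and TUBB (6 bases) lay in no listed window. The letters were read from the annotation and not from the libraries.

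All 7 genes had windows in all 6 lists, as did 4.33% of the 9792 genes. Per list, the share of those genes with a window was 25.2% in the cytoplasm under arsenic, 18.6% in the untreated cytoplasm, 83.8% in whole cells under arsenic, 92.4% in untreated whole cells, 44.6% for CAPRIN and 12.6% for G3BP1. The 7 genes held 72 windows in the cytoplasm under arsenic and 32 in the untreated cytoplasm, 78 in whole cells under arsenic and 87 in untreated whole cells, 115 for CAPRIN and 59 for G3BP1. A window is a stretch of at most 100 bases, and the largest q-value in the lists was 0.2. Log2 enrichment is given as listed, as the lower and the higher replicate, and is relative to windows of like GC content in the same list. Its median over windows of the 7 genes was 3.67 in the cytoplasm under arsenic and 1.79 untreated, against 3.97 and 3.01 over all windows. In whole cells it was 3.62 with arsenic and 3.515 without, against 3.60 and 3.46. For CAPRIN it was 4.32 against 3.71, and for G3BP1 (set with up to 2 replicates) 3.53 against 4.22. The 7 genes made up 3.71% of the IP reads in listed windows of the cytoplasm under arsenic and 2.49% in the untreated cytoplasm, against 0.398% and 0.153% in whole cells with and without arsenic. For CAPRIN this share was 2.07%, and for G3BP1 1.52%. Of the input reads in listed windows, the 7 genes made up 4.51% in the cytoplasm under arsenic and 4.93% untreated. In whole cells their input share was 0.256% with arsenic and 0.170% without, for CAPRIN 1.33% and for G3BP1 1.78%. The IP share was thus below the input share in both cytoplasmic lists, in untreated whole cells and for G3BP1. Library totals were not used here, so these are shares of listed reads and not of a library's depth. In these bulk lysates, a change in the number of cells that hold an RNA and a change in RNA per cell cannot be told apart.

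**Figure D1:**
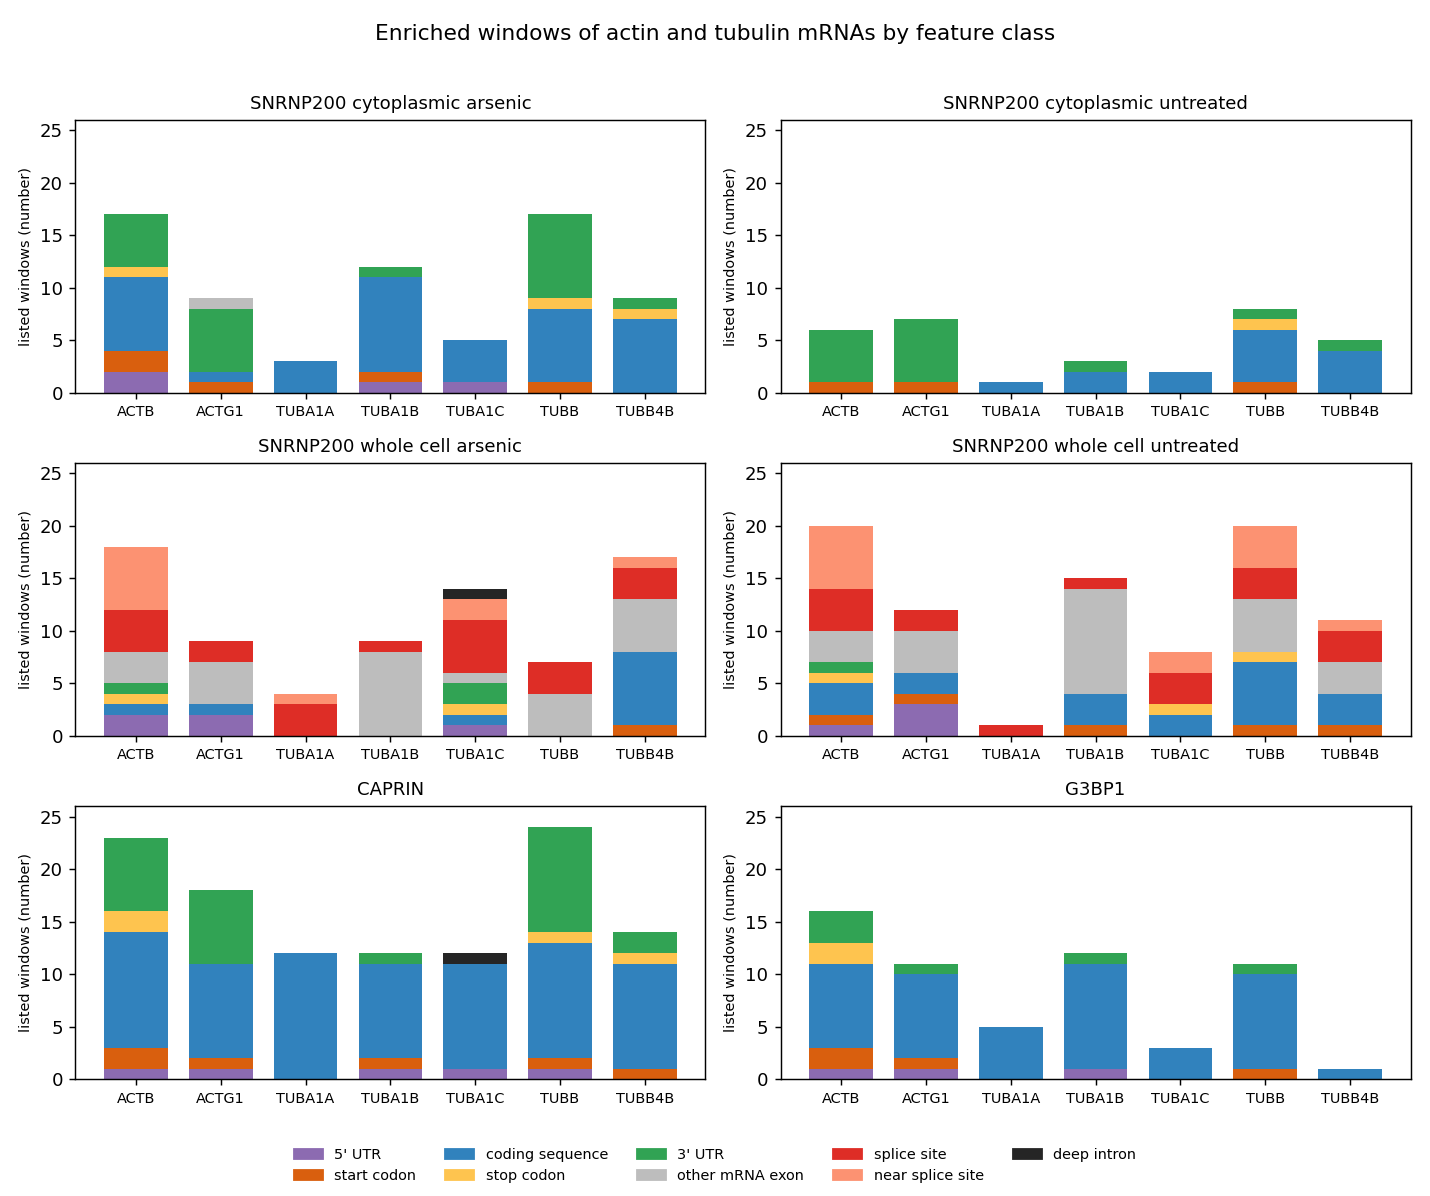
Number of enriched windows (vertical axis) of each of the 7 genes in each of the 6 lists, stacked by the feature class of the window. Windows at or near splice sites appear in the 2 whole cell panels, while the cytoplasmic, CAPRIN and G3BP1 panels consist almost wholly of coding, start, stop and UTR windows. ACTB had 17 windows in the cytoplasm under arsenic and 6 in the untreated cytoplasm, and ACTG1 had 9 and 7. These lists held 6773 and 4182 windows over all genes.

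The SNRNP200 windows of the 7 genes fell in different parts of the transcripts in the 2 fractions. In the cytoplasm under arsenic, 71 of 72 windows lay in coding sequence, UTRs or at start or stop codons, and in the untreated cytoplasm 32 of 32 did. So did 97.89% and 97.25% of all windows of these lists, so this is a trait of the lists and not of the 7 genes. In whole cells under arsenic 67 of 78 windows lay in an intron of some annotated transcript, 85.9% against 62.6% of all windows of that list, and in untreated whole cells 65 of 87 did, 74.7% against 58.9%. In the cytoplasm this held for 10 of 72 windows under arsenic (12.3% of all windows of that list) and for 3 of 32 without it (9.71%). By the windows' own feature class, the whole cell shares in introns or at splice sites were instead below those of the lists. They were 41.0% against 51.9% of all windows under arsenic, and 34.5% against 49.0% untreated. Windows in other mRNA exons made up 32.1% against 4.68% under arsenic, and 28.7% against 4.26% untreated. Coding windows made up 52.8% of the windows of the 7 genes in the cytoplasm under arsenic and 43.8% in the untreated cytoplasm, against 25.1% and 20.3% of all windows of these lists. The 3′ UTR share was 29.2% under arsenic and 43.8% without it, against 45.5% and 67.5% of all windows. These shares compare lists, with no replicate of a list, and were not tested.

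The ACTB 3′ UTR held the window of the 7 genes with most reads in the cytoplasm under arsenic. This window, chr7:5527232-5527317 on the minus strand, held 1036 IP and 450 input reads under arsenic and 805 IP and 297 input reads untreated, the 3rd of 6773 and the 4th of 4182 windows by IP reads. Its listed log2 enrichment was 4.04 and 6.11 in the 2 replicates under arsenic, against 1.19 and 2.21 untreated, so the replicates did not overlap. For CAPRIN the same window held 570 IP and 72 input reads, with replicate values of 4.59 and 4.87. G3BP1 windows were cut at other borders, and 2 overlap it. One, chr7:5527174-5527268, held 13 IP and 3 input reads, and the other, chr7:5527269-5527364, held 37 and 14 in the set with up to 2 replicates and 31 and 38 in the set with up to 3. Of the ACTB windows in the cytoplasm, 5 of 17 under arsenic and 5 of 6 untreated lay in the 3′ UTR.

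ACTB coding and 5′ windows were listed in the cytoplasm under arsenic and mostly not without it. Under arsenic 7 ACTB windows were coding, 2 were at annotated start codons and 2 in the 5′ UTR, against 0 coding, 1 start codon and 0 5′ UTR windows untreated. The lists as a whole also differed this way. Of all windows, 17.5% under arsenic and 4.95% untreated lay in the 5′ UTR. Start codon windows made up 5.91% and 1.58%, and coding windows 25.1% and 20.3%. The start codon window chr7:5529558-5529657 held 681 IP and 335 input reads under arsenic (log2 2.10 and 2.78), and was not listed in the untreated cytoplasm. A window missing from a list has no value there, so these counts do not measure a difference in enrichment.

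Most ACTG1 windows lay in the 3′ UTR in both cytoplasmic lists, 6 of 9 under arsenic and 6 of 7 untreated, while its start codon held most IP reads. The start codon window, chr17:81512255-81512354 on the minus strand, held 506 IP and 333 input reads under arsenic and 809 IP and 245 input reads untreated. The replicate values of this window were 3.17 and 3.61 under arsenic, against 1.58 and 1.66 untreated, while it had 1.52 IP reads per input read under arsenic and 3.30 untreated. The listed enrichment was thus higher and the ratio of reads lower under arsenic in the same window.

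**Figure D2:**
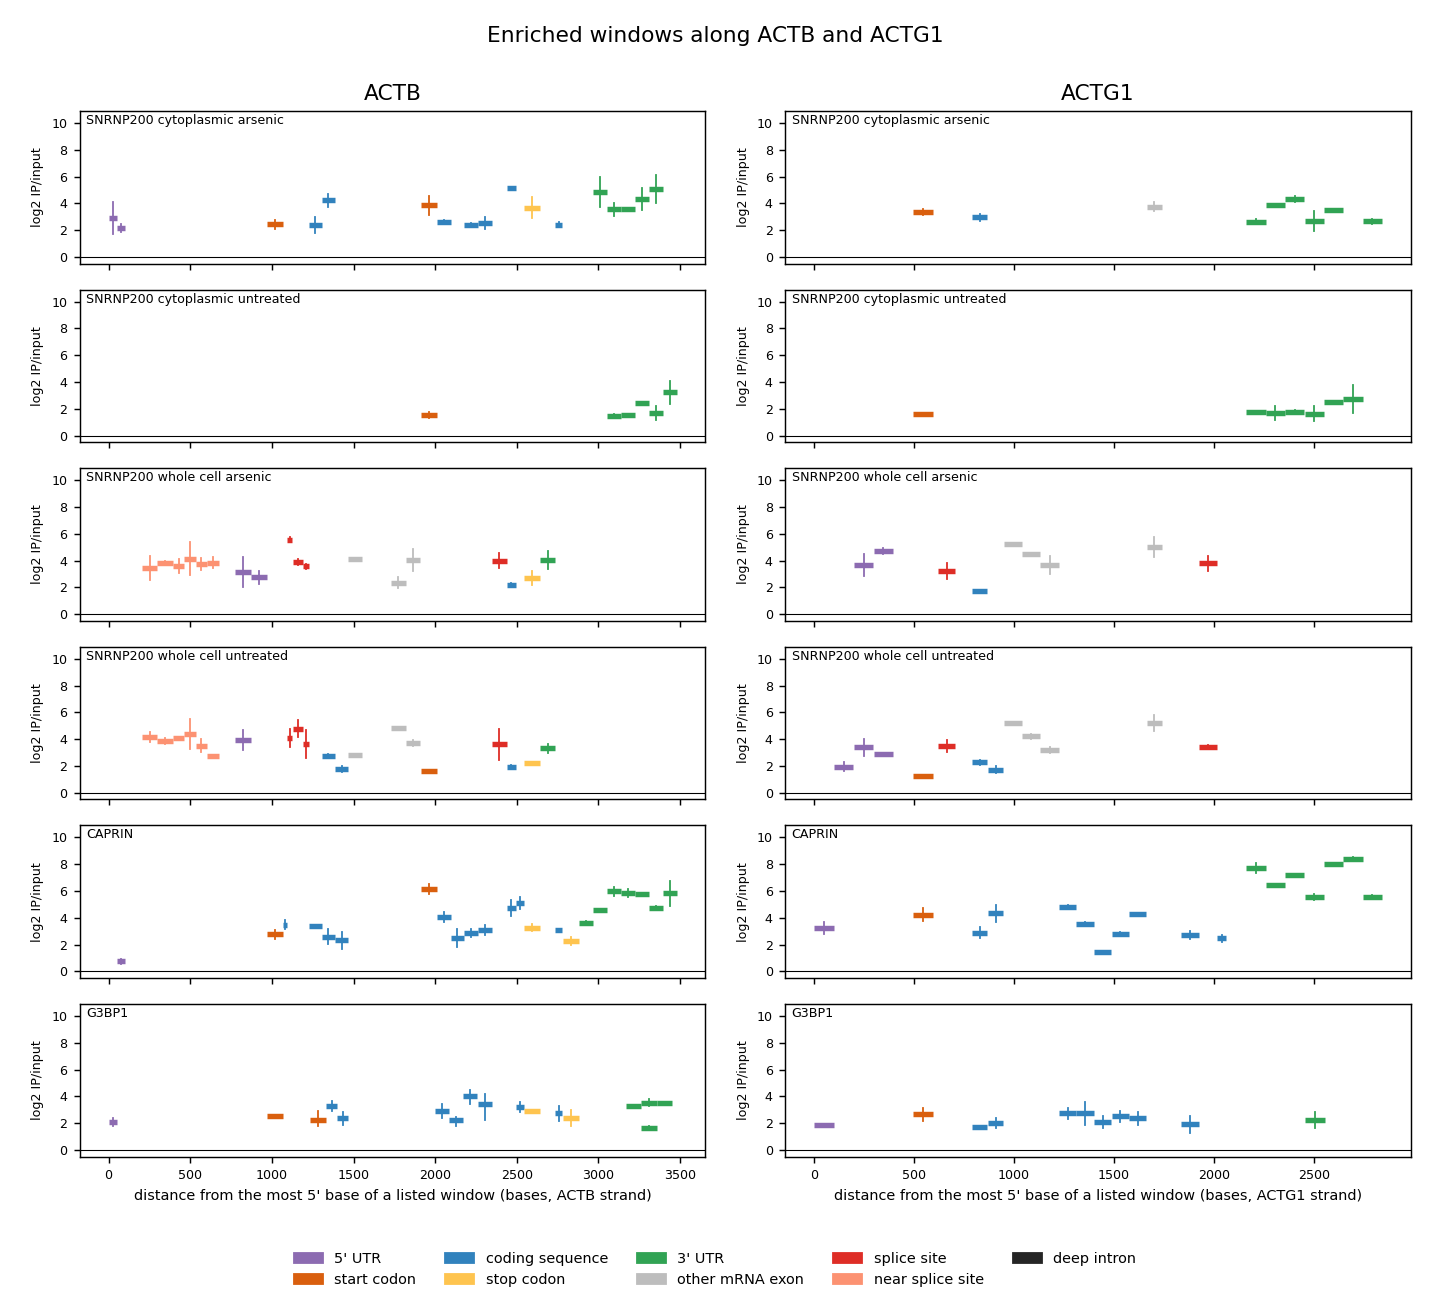
Listed log2 enrichment of IP over input (vertical axis) of each enriched window along ACTB and ACTG1, by distance in bases from the most 5′ base of any listed window (horizontal axis), with 1 row per experiment. Horizontal bars span the window at its mean, thin lines join the lowest and highest replicate, and colours give the feature class. In the CAPRIN row the ACTG1 3′ UTR windows lie at 5.53 to 8.40 and the ACTB 3′ UTR windows at 3.63 to 5.96, and the highest bar of ACTB, at 6.15, is a start codon window.

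TUBB had as many windows as ACTB in the cytoplasm under arsenic, 17, against 8 untreated. It had 8 3′ UTR windows under arsenic and 1 untreated, and 7 coding windows under arsenic and 5 untreated. The coding window chr6:30723819-30723913 held 460 IP and 141 input reads under arsenic (log2 3.26 and 4.92) and 235 IP and 50 input reads untreated (2.03 and 2.17). A window at an annotated start codon, chr6:30722968-30723028, had the highest listed enrichment of the gene in both lists, 5.59 and 6.14 under arsenic against 1.76 and 4.01 untreated. Coding windows such as chr6:30722537-30722590 were listed 5′ of it, so it is not the most 5′ coding stretch of TUBB.

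In the cytoplasmic, CAPRIN and G3BP1 lists, but not in whole cells, the alpha tubulins had coding windows above all. TUBA1B had 9 coding windows in the cytoplasm under arsenic and 2 untreated, TUBA1C had 4 and 2, and TUBA1A had 3 and 1. TUBA1A had no UTR window in any list. The most enriched TUBA1C window under arsenic, chr12:49272836-49272932, held 74 IP and 5 input reads (log2 5.19 and 7.49), and the most enriched untreated, chr12:49273228-49273278, held 22 and 5 (1.75 and 2.64). TUBB4B, a beta tubulin expressed in many tissues, had 7 coding windows under arsenic and 4 untreated. Its most enriched windows were chr9:137242784-137242879 under arsenic (3.09 and 6.82) and chr9:137242688-137242783 untreated (2.59 and 2.77).

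Of the windows of the 7 genes, 27 were in both cytoplasmic lists, which is 37.5% of the 72 listed under arsenic and 84.4% of the 32 listed untreated, against 15.7% and 25.5% of all windows of these lists. All 27 had a higher listed enrichment under arsenic, by a median of 2.09 on the log2 scale (range 0.80 to 3.37), and so did 96.5% of the 1065 windows shared by these lists, with a median of 1.99. The ratio of IP to input reads went the other way: it was higher under arsenic in 3 of 27 windows and lower in 24, against 11.6% higher and 88.4% lower of all shared windows. Summed over the 27 windows, there were 6099 IP and 3170 input reads under arsenic (1.92 IP reads per input read) and 4366 IP and 1312 input reads untreated (3.33). By the median over windows, a listed log2 value of 0 stood for 9.06 input reads per IP read under arsenic and 1.01 untreated, so the baseline of the authors' normalisation differed between these lists. The part of this baseline in the listed differences was not tested.

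**Figure D3:**
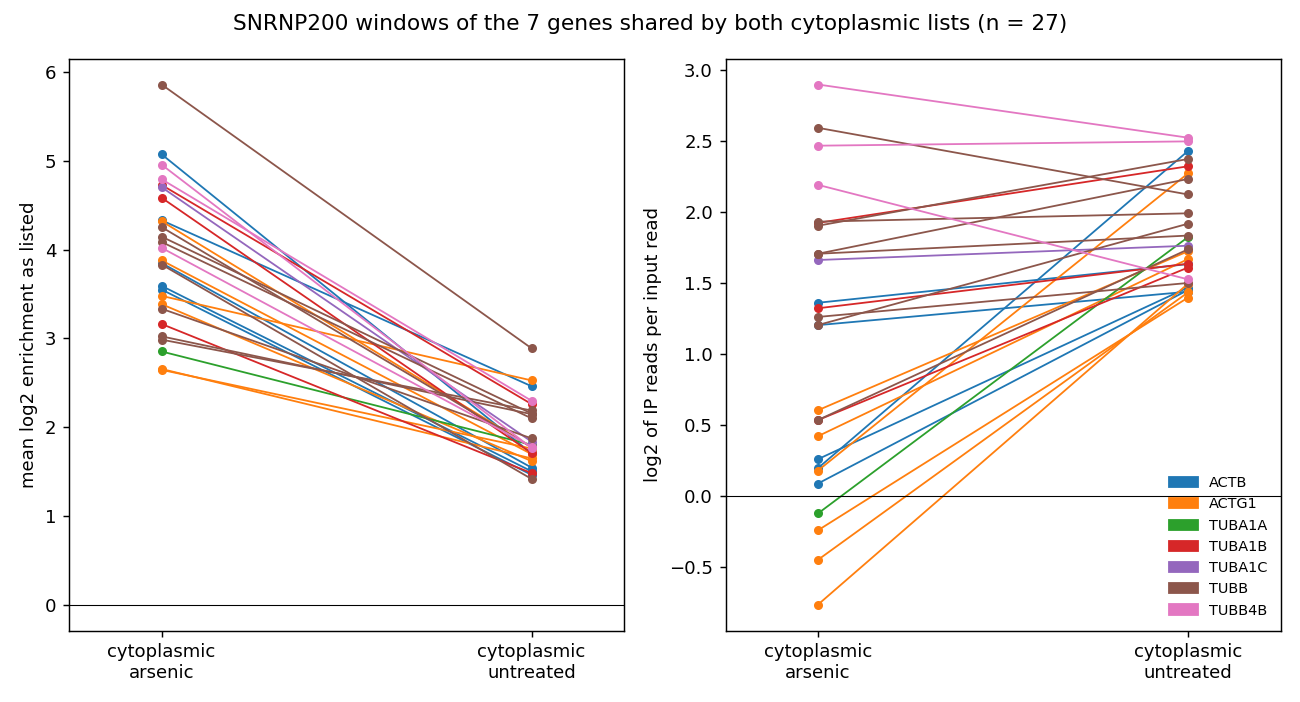
The 27 windows of the 7 genes listed in both cytoplasmic experiments, arsenic at left and untreated at right, joined by lines and coloured by gene. In the left panel the vertical axis is the mean listed log2 enrichment, where all 27 lines are higher under arsenic, and in the right panel it is the log2 of IP reads per input read, where 24 of the 27 lines are lower under arsenic.

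None of the 7 genes differed between the cytoplasm under arsenic and the untreated cytoplasm at adjusted p under 0.05. limma with Benjamini-Hochberg adjustment called 0 of 669 genes by their representative window (the shared window with most IP reads), while 196 (29.3%) were at an unadjusted p under 0.05. The replicate values lay apart, higher under arsenic, in 7 of 7 genes, and in 70.9% of the 669. The ACTB 3′ UTR window differed by 3.37 (SE 1.21, adjusted p = 0.134) and the TUBA1B 3′ UTR window chr12:49127870-49127957 by 2.88 (SE 1.20, adjusted p = 0.150). ACTG1 (1.77, SE 1.14), TUBA1C (2.87, SE 1.16), TUBB (1.99, SE 1.18), TUBB4B (2.24, SE 1.21) and TUBA1A (1.05, SE 1.15) had adjusted p-values of 0.150 to 0.469. The median difference of all 669 genes was 2.02, and relative to it ACTG1 (-0.25), TUBA1A (-0.96) and TUBB (-0.03) were lower under arsenic and the other 4 were higher. Without the lower replicate value of the arsenic list, which can only raise a difference, those of the 7 genes ran from 1.465 (TUBA1A) to 4.409 (ACTB). Without the higher value of that list they ran from 0.6397 (TUBA1A) to 2.335 (ACTB). With a variance trend limma called 112 genes, with ACTB, ACTG1, TUBA1B, TUBA1C and TUBB4B among them.

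In whole cells, most SNRNP200 windows of the 2 actins lay at or near splice sites or in exons that are intronic in another transcript. ACTB had 6 windows near splice sites in the stretch upstream of its start codon (chr7:5529950-5530423) in each of the whole cell lists. They held 138 to 798 IP and 3 to 25 input reads under arsenic, against 50 to 209 IP and 1 to 15 input reads untreated. The window of this stretch with most reads under arsenic, chr7:5529950-5530023, held 798 IP and 25 input reads under arsenic (log2 3.449 and 4.260) and 189 and 15 untreated (2.705 and 2.846). The most enriched ACTB window under arsenic, chr7:5529501-5529534 at a 5′ splice site, held 277 IP and 2 input reads (5.38 and 5.74), and the most enriched untreated, chr7:5528808-5528895, held 21 and 0 (4.74 and 4.91). ACTG1 had most IP reads under arsenic at the splice-site window chr17:81512143-81512231, 1437 IP and 63 input reads (2.64 and 3.83), against 370 and 19 untreated (3.08 and 3.95). The replicates of this ACTG1 window overlapped.

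Among the tubulins, the most enriched whole cell windows also lay at splice sites or in exons that are intronic in another transcript. TUBB had its most enriched window untreated at the 5′ splice site window chr6:30720564-30720663, with 77 IP and 0 input reads (log2 7.17 and 7.23), and 14 IP and 1 input read there under arsenic (2.54 and 5.11). TUBB had 7 windows under arsenic and 20 untreated, while TUBA1C had 14 and 8, TUBB4B 17 and 11, and TUBA1A 4 and 1. TUBB4B was highest at the 3′ splice site window chr9:137241621-137241720, with 378 IP and 8 input reads under arsenic (4.06 and 5.20) and 190 and 1 untreated (5.91 and 5.97). In TUBA1B the exon window chr12:49129723-49129821 held 132 IP and 8 input reads under arsenic (4.57 and 7.51) and 202 and 10 untreated (5.67 and 5.72). The direction of these listed values was not the same across the tubulins.

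In whole cells no gene passed the test for a difference with arsenic. Of 58 shared windows, 29 were higher and 29 lower under arsenic, with a median difference of 0.02, against -0.01 over all 91143 shared windows. limma called 0 of 7408 genes (284, or 3.83%, at an unadjusted p under 0.05), and each of the 6 genes with a shared window had an adjusted p of 0.99. TUBA1A shared none. The differences ran from 1.33 (SE 0.87) for TUBB to -0.44 (SE 0.87) for TUBA1C. Replicates lay apart, higher under arsenic, in ACTB, TUBA1B and TUBB, 3 of 6 genes, against 16.9% of the 7408. For TUBB this representative window, chr6:30722646-30722735, was higher by 1.33, while 5 of its 7 shared windows were lower under arsenic and their median difference was -1.05.

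Few windows allowed the fractions to be compared directly. In untreated cells 10 windows of 4 genes were in both the cytoplasmic and the whole cell list, 31.2% of the cytoplasmic and 11.5% of the whole cell windows of the 7 genes, and with arsenic 7 windows of 3 genes were (9.72% and 8.97%). limma called 0 of 390 genes untreated, where 65 (16.7%) had unadjusted p-values below 0.05. With arsenic it called 0 of 527, where 94 (17.8%) did. Untreated, the ACTB window chr7:5528617-5528716, at an annotated start codon, had 1.35 and 1.74 in the cytoplasm, against 1.636 and 1.637 in whole cells, so the replicates overlapped. The differences of the 4 genes ran from 0.44 (SE 0.51) for TUBB to -0.82 (SE 0.56) for TUBB4B (adjusted p = 0.465 to 0.949). Replicates lay apart, higher in the cytoplasm, in ACTG1 and TUBB (26.9% of the 390 genes), and lower in TUBB4B (23.6%). With arsenic the differences were 1.75 (SE 0.95) for TUBB4B, 1.22 (SE 0.85) for ACTG1 and 1.00 (SE 0.94) for ACTB (adjusted p = 0.276 to 0.486), beside a median of 1.31 over all 527 genes. Replicates lay apart, higher in the cytoplasm, in ACTG1 and TUBB4B, against 58.8% of the 527 genes, and lower in none of the 3, against 2.28%.

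Whether arsenic acted differently in the 2 fractions could be tested in TUBB4B only, the gene of the 7 with 1 window in all 4 SNRNP200 lists. Its window chr9:137242784-137242879 had 3.09 and 6.82 in the cytoplasm under arsenic and 1.43 and 2.10 untreated, and 3.19 and 3.69 in whole cells under arsenic and 2.33 and 2.84 untreated. The cytoplasmic effect exceeded the whole cell effect by 2.34 (SE 1.47, adjusted p = 0.187 by limma), beside a median of 2.50 over the 68 genes tested, of which 0 were called (21, or 30.9%, at an unadjusted p under 0.05). Without the lower replicate value of the cytoplasmic arsenic list, the TUBB4B difference was 4.21. Leaving out the lower of 2 values can only raise it and leaves no spread in that list.

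The highest CAPRIN values of ACTG1 lay in its 3′ UTR. The 7 ACTG1 3′ UTR windows had mean log2 values of 5.53 to 8.40. The highest, chr17:81510107-81510203, held 147 IP and 0 input reads, and the neighbouring chr17:81510204-81510300 held 271 and 2. The 7 ACTB 3′ UTR windows had 3.63 to 5.96. The list median was 3.71. An ACTB window at an annotated start codon, chr7:5528617-5528716, had the highest value of that gene (194 IP and 6 input reads, log2 5.78 and 6.51). Coding windows such as chr7:5529161-5529240 were listed 5′ of it, so it is not the most 5′ coding stretch of ACTB. G3BP1 had 3 ACTB and 1 ACTG1 3′ UTR windows, with means of 3.30 to 3.53 for ACTB in the set with up to 2 replicates and 2.22 for ACTG1. Coding windows numbered 8 of 16 for ACTB and 8 of 11 for ACTG1 in the G3BP1 list.

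In the alpha tubulins CAPRIN was listed highest at coding windows with hardly any input reads. The TUBA1B window chr12:49128155-49128252 held 390 IP and 0 input reads (log2 9.26 and 9.46), the TUBA1A window chr12:49185697-49185794 held 242 and 0 (8.79 and 9.31), and the TUBA1C window chr12:49272447-49272543 held 254 and 0 (8.920 and 9.001). The values of windows with 0 input reads depend on how the authors' method treats a count of 0, which no source used here states. At 95% confidence the counts put the TUBA1B window at 105 or more IP reads per input read, an interval that covers counting error only. TUBA1A and TUBA1C had CAPRIN medians of 5.60 and 5.55 over 12 windows each, and TUBA1B had 4.22 over 12. TUBB had 24 CAPRIN windows, of which 10 lay in the 3′ UTR, and the highest was the coding window chr6:30722537-30722590, with 70 IP and 0 input reads (6.43 and 7.17).

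**Figure D4:**
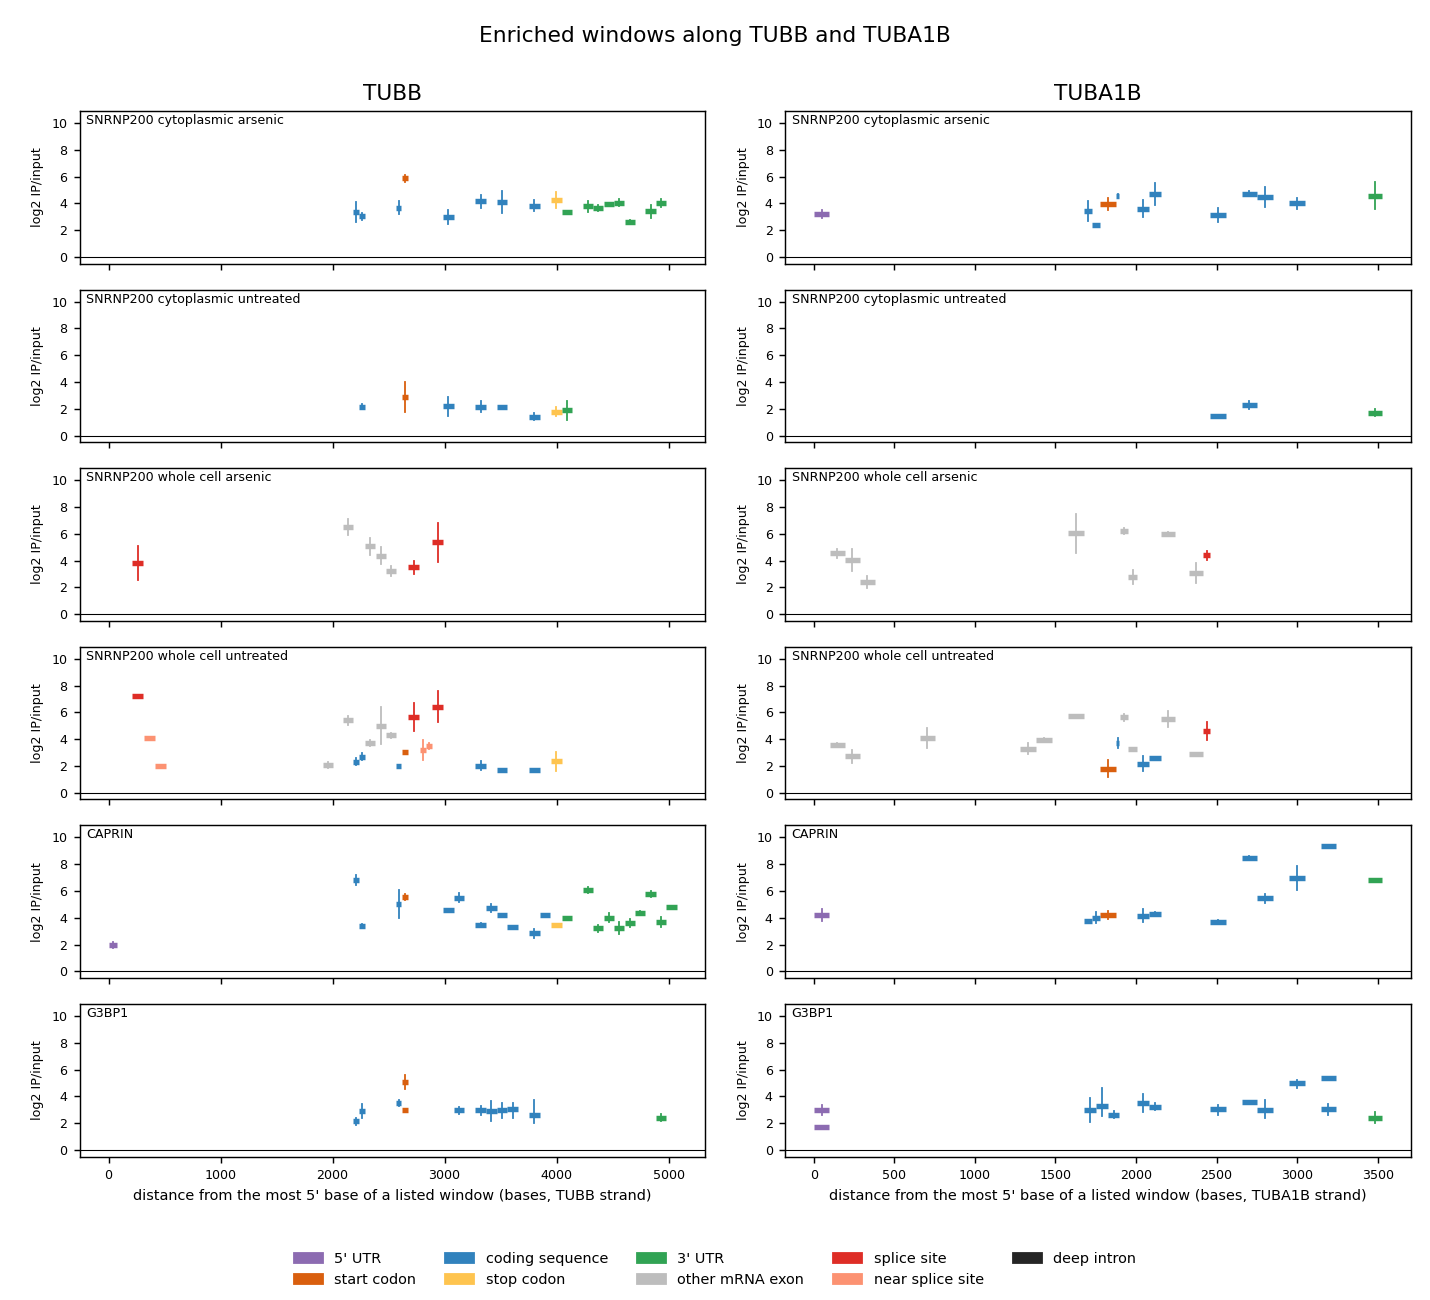
Listed log2 enrichment (vertical axis) of each enriched window along TUBB and TUBA1B by distance in bases from the most 5′ base of any listed window, drawn as in the actin map. Coding and 3′ UTR windows fill the TUBB body in the cytoplasmic arsenic and CAPRIN rows, and the TUBA1B coding window at 9.36 in the CAPRIN row is the highest of both genes.

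CAPRIN was higher than G3BP1 in 4 of the 5 tubulins with a window in both lists. limma called 111 of 367 genes (30.2%), 41 higher for CAPRIN (11.2%) and 70 lower (19.1%), and among the 5 tubulins tested, 4 were higher for CAPRIN and none lower. The listed TUBA1B values differed by 4.02 (SE 0.51, adjusted p = 0.00323), with 9.26 and 9.46 for CAPRIN against 5.21 and 5.46 for G3BP1. This window held 390 IP and 0 input reads for CAPRIN and 17 and 0 for G3BP1, so the size of its difference rests on the treatment of 0 in both lists, and its test does not measure a difference in IP per input read. TUBA1C was higher by 2.81 (SE 0.59, adjusted p = 0.0120), with 6.22 and 6.39 against 2.90 and 4.09. TUBA1A was higher by 2.37 (SE 0.54, adjusted p = 0.0180), with 7.99 and 8.13 against 5.32 and 6.07. This TUBA1A window held 387 IP and 2 input reads for CAPRIN and 21 and 0 for G3BP1. The size of its difference thus also rests on the treatment of 0. With 0 input reads for G3BP1, its IP reads per input read could not be compared. TUBB4B was higher by 2.23 (SE 0.54, adjusted p = 0.0201), with 4.90 and 5.15 against 2.43 and 3.15. TUBB had 5.32 and 5.79 against 4.56 and 5.59, a difference of 0.48 (SE 0.58, adjusted p = 0.567), and its replicates overlapped. Replicates lay apart, higher for CAPRIN, in 4 of the 5, against 25.3% of the 367 genes, and the median difference of all 367 was -0.47.

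These calls are on the listed values and rest on few reads. By IP reads per input read, 4 of the 7 shared windows were counted as higher for CAPRIN and 2 as lower. In this count a window with 0 input reads in only 1 of the lists was taken as higher in that list. The 2 lower windows were both in TUBA1A with 0 input reads for G3BP1, so no direction follows from them. TUBA1B gave no ratio in either list. Over all shared windows 43.2% were higher and 48.8% lower by the same count. A listed value of 0 stood for 2.09 input reads per IP read for CAPRIN and 3.90 for G3BP1, and the part of this baseline was not tested. The 4 called windows held 17 to 31 IP and 0 to 7 input reads for G3BP1, and 184 to 390 IP and 0 to 6 input reads for CAPRIN, and no tubulin window passed a minimum of 20 IP and 10 input reads in both lists. Leaving out the lower or the higher CAPRIN value ended the calls of TUBA1A, TUBA1C and TUBB4B (adjusted p = 0.0656 to 0.155), while the listed TUBA1B values were called without any single value. In the G3BP1 set with up to 3 replicates, which was not tested, the TUBA1B window held 56 IP and 14 input reads, with a mean of 3.07, the TUBA1A window chr12:49185207-49185304 held 57 and 10, with a mean of 3.46, and the TUBA1C window chr12:49272641-49272738 held 39 and 17, with a mean of 2.73. ACTB and ACTG1 had no window in common with CAPRIN in the G3BP1 set tested, and with an overlap of at least 1 base ACTB differed by 1.20 (SE 0.53, adjusted p = 0.128).

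**Figure D5:**
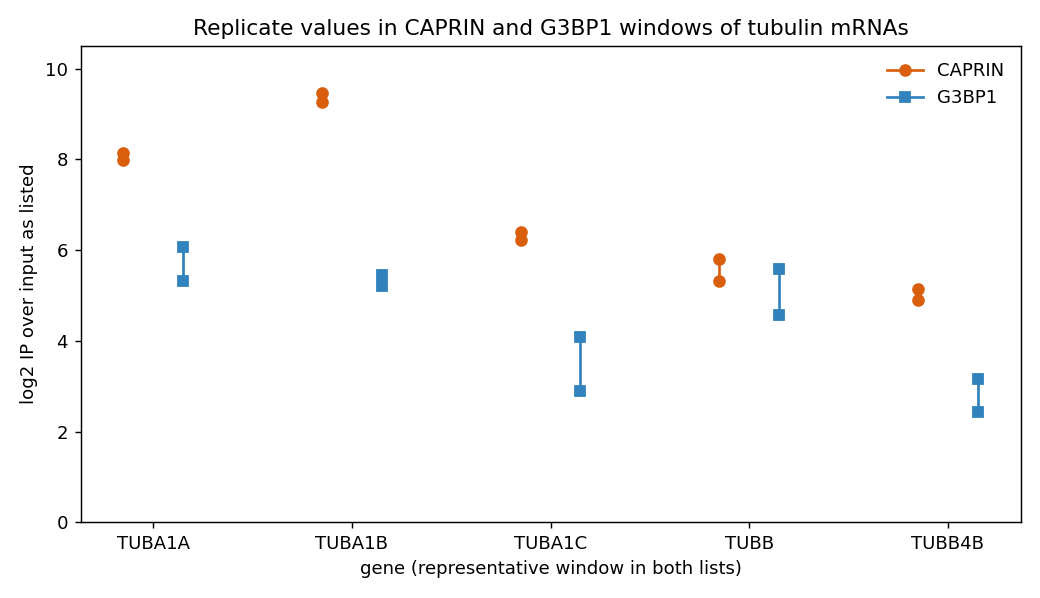
Listed log2 enrichment (vertical axis) of the 2 replicates in the representative window of each tubulin gene, CAPRIN as circles at left and G3BP1 as squares at right of each gene, with lines joining the replicates. The 2 pairs do not overlap in TUBA1A, TUBA1B, TUBA1C and TUBB4B, and overlap in TUBB.

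The cytoplasmic SNRNP200 windows of the 7 genes mostly coincided with CAPRIN windows. Of the 72 windows in the cytoplasm under arsenic, 66 (91.7%) were also CAPRIN windows, which is 57.4% of CAPRIN's 115, and of the 32 untreated windows 31 (96.9%) were, or 26.96% of CAPRIN's. Over all genes these shares were 35.4% of the arsenic and 15.2% of the CAPRIN windows, and 32.8% of the untreated and 8.66% of the CAPRIN windows. These overlaps were not tested, and CAPRIN was profiled without fractionation. CAPRIN and G3BP1 had 43 identical windows in the 7 genes, 37.4% of CAPRIN's and 72.9% of G3BP1's, against 10.7% and 55.8% over all windows, and 58 of the 59 G3BP1 windows overlapped a CAPRIN window by at least 1 base.

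Of 214 distinct windows, 66 were in 1 list, 8 were in 5 lists and none was in all 6. The 8 were the ACTB window at an annotated stop codon, chr7:5527983-5528082, the ACTG1 coding and start codon windows, chr17:81511983-81512062 and chr17:81512255-81512354, and 5 TUBB windows, 4 of them coding and 1 at an annotated start codon. The ACTB stop codon window held 188 IP and 134 input reads in the cytoplasm under arsenic, 639 and 133 in whole cells under arsenic, 250 and 67 in untreated whole cells, 66 and 18 for CAPRIN, and 62 and 27 for G3BP1.

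By the number of windows per list, the gene closest to the median of the 7 among other genes was TOMM20, which encodes a receptor of the mitochondrial outer membrane. It had 11 and 6 windows in the cytoplasm with and without arsenic, 19 and 22 in whole cells with and without arsenic, 8 for CAPRIN and 8 for G3BP1. ARF1, SLC25A5, PRKAR1A and CBX6 followed. This likeness is a Euclidean distance over 6 lists of log2 counts of windows plus 1, and it also depends on the length of a gene. TOMM20 was at a distance of 1.58. Among the 7 genes themselves ACTG1 was nearest to their median, at 0.54, and TUBA1A farthest, at 3.69.

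Among other genes of the actin and tubulin pathways, the other tubulins had no window in either cytoplasmic list. Of 17 other tubulins 7 had a window in any list, 0 did for G3BP1 and 4 did for CAPRIN. Beside these counts, 25.2% of the 9792 genes had a window in the cytoplasm under arsenic and 18.6% in the untreated cytoplasm. For CAPRIN 44.6% did, and for G3BP1 12.6%. The counts of these gene lists were not tested against those shares. TUBG1, the gamma tubulin of microtubule nucleation, had 8 windows in whole cells under arsenic, 24 in untreated whole cells and 2 for CAPRIN. Of 15 other actins and actin-related genes, 10 had a window in any list, 3 in the cytoplasm under arsenic, 2 in the untreated cytoplasm and 1 for G3BP1. ACTR2, a subunit of the Arp2/3 complex that nucleates branched filaments, had 8 windows in the cytoplasm under arsenic and 3 untreated. Of 15 folding factors of tubulin and actin, 4 had a window in the cytoplasm under arsenic, 1 in the untreated cytoplasm, 10 for CAPRIN and 0 for G3BP1. Of 29 proteins of actin filaments, 17 had one in the cytoplasm under arsenic and 12 untreated, and 5 had one in all 6 lists. Of 15 microtubule proteins, 10 had one in the cytoplasm under arsenic and 9 untreated, and 5 had one in all 6 lists. FLNA, a crosslinker of actin filaments, had 14 windows in the cytoplasm under arsenic and 2 untreated, and 61 for CAPRIN and 18 for G3BP1. The pseudogenes TUBBP5 and ACTG1P20, whose reads may be exchanged with those of beta tubulin genes and ACTG1, had 2 and 1 windows for CAPRIN.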

How the data were processed

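Reads of 24 eCLIP libraries in 12 groups of 2 were trimmed with fastp 0.11.5 and aligned with STAR 2.7.6 to hg38, per the submitters' processing notes. What called the windows is not stated in those notes. The 6 deposited lists carry no header, and each column's content was worked out from its values. The deposited counts are raw IP and input read counts per window, each summed over replicates. Log2 enrichment, as deposited, is given for the lowest replicate, the mean and the highest. That it is relative to windows of like GC content was read from the values: in windows with at least 20 IP and 20 input reads, its distance from the log2 of IP over input had an SD of 0.326 to 1.14 within a list or set, against a median of 0.056 to 0.252 within a GC class. The authors list for each window the highest and lowest p-value and q-value among replicates, and no q-value exceeds 0.2. The deposited GC content is a fraction. Depth per library is not known from these lists. Samples were grouped by their titles and characteristics, since the labels' treatment protocol mentions arsenic throughout. The labels also name the same antibody number for all samples, whether of SNRNP200, CAPRIN or G3BP1, so the protein pulled down was taken from the titles.

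A window belonged to a gene when its name stood in the gene column, also where several did. The G3BP1 list joins a set of 1254 windows (up to 2 replicates) and a set of 1988 (up to 3), and 219 windows are in both. Both sets were used for counts, and the set with up to 2 replicates alone for tests, since each was normalised on its own. Differences were tested with limma 3.58.1 (R 4.3.3; two-sided, without centring or block) on the 2 replicate values of each list, 1 representative window per gene (the shared window with most IP reads), fitted over all genes, with adjusted p under 0.05. It was tested on simulated data with planted differences. With 2 values against 2, an exact permutation test cannot go below 0.333. The alternatives were the mean of shared windows, q-values under 0.05, at least 20 IP and 10 input reads, a variance trend, a removed median, an overlap of 1 base, and leaving out a replicate value. Intervals are exact binomial at 95% and cover counting error only. The 7 genes, the pathway lists and the rule for named genes (all members in every list, their windows strongest by enrichment or reads, the 5 nearest genes by windows per list, and up to 3 genes per pathway list) were chosen with earlier results of these data known. Promoter sequences come from RefSeq on GRCh38.p14. No genome sequence was used here.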

Additional observations from a re-analysis of the deposited data

How the results depend on the processing

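No paired analysis was possible because the lists give the lowest and the highest replicate without their numbers. Windows of the 7 genes with q-values under 0.05 numbered 14 in the cytoplasm under arsenic, 5 in the untreated cytoplasm, 37 in whole cells under arsenic, 57 in untreated whole cells and 30 for G3BP1. With at least 20 IP and 10 input reads they numbered 43 and 39 in whole cells with and without arsenic, and 38 for CAPRIN. The G3BP1 set with up to 2 replicates alone, an alternative chosen after seeing the data, held 11.

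Genes called by limma in the cytoplasm, arsenic against untreated, numbered 30 with the mean of shared windows, 19 with q-values under 0.05, 62 with the minimum of reads and 112 with a variance trend, and 0 to 381 when a replicate value was left out, a fit in which the lone value is assumed to vary like the other list. With the minimum of reads ACTB was called there (adjusted p = 0.0455). Leaving one out gave 0 to 4 in whole cells, 25 to 160 for CAPRIN against G3BP1 and 0 to 64 for the difference between fractions. CAPRIN against G3BP1 gave 67 with q-values under 0.05 and 21 with the minimum of reads. Cytoplasm against whole cells gave 18 untreated with the minimum of reads, and with arsenic 1 with q-values under 0.05, 1 with the minimum of reads and 3 with a variance trend. The difference between fractions gave 2 with the minimum of reads, and with q-values under 0.05 it could not be fitted.

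Directions reversed for the arsenic effect in whole cells with the mean of shared windows in ACTG1 (0.25) and TUBB (-0.84), with q-values under 0.05 in ACTG1 (0.30) and with the minimum of reads in TUBA1B (-0.48). Leaving out a value gave -0.88 to 0.32 for ACTG1, -1.03 to 0.15 for TUBA1C and -1.46 to 1.03 for TUBB4B. Removing the median reversed ACTG1 (-0.25), TUBA1A (-0.96) and TUBB (-0.0274) in the cytoplasm, and ACTB (-0.31) and ACTG1 (-0.0829) between fractions with arsenic, and TUBB4B (-0.16) for the difference between fractions. Between fractions, the mean of shared windows reversed TUBB untreated (-0.16) and ACTG1 with arsenic (-0.0245), and q-values under 0.05 reversed ACTG1 with arsenic (-1.27). Leaving out a value gave -0.29 to 0.10 for ACTB untreated, and -0.036 to 0.998 for TUBB between CAPRIN and G3BP1. The cause of these changes was not tested. Few input reads per window limit the precision.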
